A study of Homo sapiens with 6 samples.

Results

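The HOX genes were examined in RNA-seq counts from A2058, a human line derived from a melanoma metastasis. The list holds the 38 HOX genes that were named for this purpose in the HOXA, HOXB, HOXC and HOXD clusters, among 60675 gene identifiers in the count table. The members were matched by their GENCODE symbol. They correspond to 39 identifiers, since HOXC5 has 2, of which one had 0 counts in all 6 libraries. Of the 38 genes, 37 had at least 10 counts in total. HOXB1 had a single count, in vitamin C replicate 3.

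The control group was 3 wells of A2058 cells kept in medium without vitamin C, and the treated group was 3 wells of the same line given 100 µM vitamin C for 48 h, per the sample labels. In the protocol text, 50 µM of sodium ascorbate is named instead, whereas the study's methods match the treatment label. The methods also describe daily medium changes and ribosomal RNA depletion. As all wells held 1 cell line, p-values here reflect well-to-well spread, and fewer cells of a type and less RNA per cell cannot be told apart.

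HOX genes encode transcription factors that bind DNA through a homeodomain. They lie in 4 clusters, and their order along each cluster follows the order of their expression along the body axis of the embryo. Cells keep much of this pattern in culture, under the control of Polycomb and trithorax proteins, which repress or maintain transcription of the clusters. The study asked how vitamin C, a cofactor of the TET enzymes that convert 5mC to 5hmC, shifts the transcriptome of melanoma cells. For the HOX genes, the comparison asks which members differed between vitamin C and control wells.

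The libraries held 16248869 to 41884588 counts in control wells and 20944956 to 32549362 in vitamin C wells. Counts were scaled by TMM, and levels are given in CPM (counts scaled to a common library size). edgeR's quasi-likelihood test was run on the 16353 genes that passed its filter on low counts, and a gene was called at an adjusted p under 0.05 (Benjamini-Hochberg over all genes tested). Vitamin C replicate 3 stood apart from the other vitamin C wells, at -22.5 on the second principal component against 17.5 and 14.5. Control replicate 3 lay toward the same side, at -16.1 against 9.81 and -3.14 for the other control wells. All 8 melanocyte lineage markers had a mean of at least 1 CPM, with a summed level of 2345 to 2461 CPM in control wells and 2158 to 2294 CPM in vitamin C wells. The lower sum was that of DCT, the most abundant of them (log2 fold change -0.30), whereas MLANA (3.38), PMEL (0.73), PAX3 (0.34) and TYR (0.29) were called higher and the other 3 markers were not called. None of the 4 blood markers reached a mean of 1 CPM, and they summed to at most 1.27 CPM in any library. The 5 epithelial markers, 2 of them at 1 CPM or more, summed to 61.6 to 66.0 CPM in control and 54.0 to 57.1 CPM in vitamin C wells. Most of that sum was KRT18, at a mean of 56.2 CPM in control and 48.5 CPM in vitamin C wells. KRT18 was called lower (log2 fold change -0.21), and KRT8 was not called. The 6 fibroblast markers, 4 of them at 1 CPM or more, are of a cell type that also uses HOX genes. They summed to 9.82 to 12.1 CPM in control and 13.5 to 16.6 CPM in vitamin C wells. Of the fibroblast markers, PDGFRB (log2 fold change 1.6) and COL3A1 (0.76) were called higher, and the other 3 that were tested were not called. The part of the epithelial and fibroblast lists in the HOX values was not tested.

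The homeobox, the stretch of 180 bases that encodes the homeodomain, is shown for HOXB6, HOXB7 and HOXB9, of which HOXB6 and HOXB9 fell and HOXB7 was not called. The sequences were read 5′ to 3′ from the GENCODE 29 transcripts, and capitals mark the 75 positions at which these 3 genes are not all the same.
HOXB6: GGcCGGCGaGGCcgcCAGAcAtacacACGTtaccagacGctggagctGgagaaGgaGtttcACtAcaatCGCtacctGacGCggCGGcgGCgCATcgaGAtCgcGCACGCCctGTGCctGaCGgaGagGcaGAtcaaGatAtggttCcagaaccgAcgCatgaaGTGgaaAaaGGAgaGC
HOXB7: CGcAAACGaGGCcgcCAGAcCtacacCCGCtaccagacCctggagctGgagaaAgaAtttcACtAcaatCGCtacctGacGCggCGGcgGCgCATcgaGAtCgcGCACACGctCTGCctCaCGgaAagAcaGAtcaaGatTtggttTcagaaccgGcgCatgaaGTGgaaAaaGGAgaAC
HOXB9: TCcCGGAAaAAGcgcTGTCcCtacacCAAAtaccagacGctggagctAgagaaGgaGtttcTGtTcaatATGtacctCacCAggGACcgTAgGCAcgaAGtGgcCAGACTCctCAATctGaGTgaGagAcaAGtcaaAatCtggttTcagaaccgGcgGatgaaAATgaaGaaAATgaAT
HOXB6 and HOXB7 were the closest pair, with 88.9% identity, and HOXB7 and HOXB9 the most distant, with 62.2%. Over whole transcripts, HOXB6 shared a run of 434 identical bases with HOXB3, where the annotated exons of both genes overlap, and the next longest run was 51 bases, with HOXB7. For HOXB9 the longest run shared with any other member was 40 bases. For HOXA11 it was 24 bases.

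In the table of RefSeq promoters (GRCh38.p14), 20 of the 38 genes have an entry. HOXB6, HOXB7, HOXB8 and HOXB9 have none. The 250 bases before the start of HOXA11, the HOX gene that rose, of the antisense RNA HOXA-AS3, which also rose, and of its neighbour HOXA6 are shown 5′ to 3′ on the strand of each gene. Capitals mark CpG sites, the dinucleotides at which 5mC and 5hmC mostly occur. The window of HOXA11 is chr7:27185233-27185482 (minus strand), that of HOXA-AS3 is chr7:27146913-27147162 (plus strand) and that of HOXA6 is chr7:27147775-27148024 (minus strand). These are RefSeq starts, and those of HOXA-AS3 and HOXA6 lie inside the GENCODE 29 spans of these genes, chr7:27129977-27155928 and chr7:27145396-27150603, so that they are not the outermost starts.
HOXA11: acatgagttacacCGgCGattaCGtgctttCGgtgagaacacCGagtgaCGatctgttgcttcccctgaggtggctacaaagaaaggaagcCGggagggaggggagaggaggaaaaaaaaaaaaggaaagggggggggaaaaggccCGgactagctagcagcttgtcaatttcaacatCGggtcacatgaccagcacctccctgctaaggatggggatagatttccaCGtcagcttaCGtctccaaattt
HOXA-AS3: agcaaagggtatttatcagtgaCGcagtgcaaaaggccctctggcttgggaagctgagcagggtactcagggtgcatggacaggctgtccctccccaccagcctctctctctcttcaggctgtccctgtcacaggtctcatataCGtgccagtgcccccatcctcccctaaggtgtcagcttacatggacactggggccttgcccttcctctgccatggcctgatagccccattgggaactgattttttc
HOXA6: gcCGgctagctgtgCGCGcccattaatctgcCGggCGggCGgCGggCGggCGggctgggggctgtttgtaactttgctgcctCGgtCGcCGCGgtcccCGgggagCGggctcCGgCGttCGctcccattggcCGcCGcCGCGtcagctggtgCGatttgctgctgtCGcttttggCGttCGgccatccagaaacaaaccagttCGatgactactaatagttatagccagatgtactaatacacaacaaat
In windows of 300 bases, which add 50 bases after the start, HOXA11 had 13 CpG sites, HOXA-AS3 had 2 and HOXA6 had 29. The median was 14 over the 35116 promoters of the table and 22 over the 27 HOX starts in it. Both strands were searched for the TATA box (TATAAA), the CCAAT box, the E-box (CACGTG), a homeodomain core (TAATTA) and a site of PBX with HOX (TGATNNAT). No match was found in the HOXA11 window. CCAAT was found for HOXA6 and HOXA-AS3, as in 34.6% of all promoters, and TGATNNAT for HOXA-AS3, as in 7.4%. The other shares were 11.5% for TATAAA, 7.26% for CACGTG and 4.84% for TAATTA.

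A2058 cells held transcripts of all 4 clusters. A mean of 1 CPM or more in either group was reached by 30 of the 38 genes. Levels of different genes were compared per kb of merged exon length. This length includes bases shared with other genes, where the counts are uncertain. HOXB7, a gene of the central part of its cluster that is often expressed in melanoma, was the highest, with 31.7 ± 1.54 CPM per kb (SD, n = 3 wells) in control and 31.8 ± 5.33 CPM per kb (SD, n = 3 wells) with vitamin C. It made up 24.4% of the summed HOX level per kb in control wells. HOXB9 followed with 13.6 ± 1.4 CPM per kb (SD, n = 3 control wells), beyond the spread of both genes. HOXA5, at 8.77, HOXA10, at 8.13, and HOXB6, at 7.97 CPM per kb, came next, and neighbours among these 3 did not differ by more than their summed SDs. The gene at the 5′ end of the HOXD cluster, HOXD13, had 6.90 ± 0.162 CPM per kb (SD, n = 3 control wells), while HOXD10, HOXD11 and HOXD12 beside it had 0.447, 0.187 and 0.319 CPM per kb. Likewise, HOXA9 had 0.0847 CPM per kb although its neighbour HOXA10 was among the highest. Of 37 pairs of neighbours in the order of all members, 9 differed by more than their summed SDs in control wells.

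**Figure D1:**
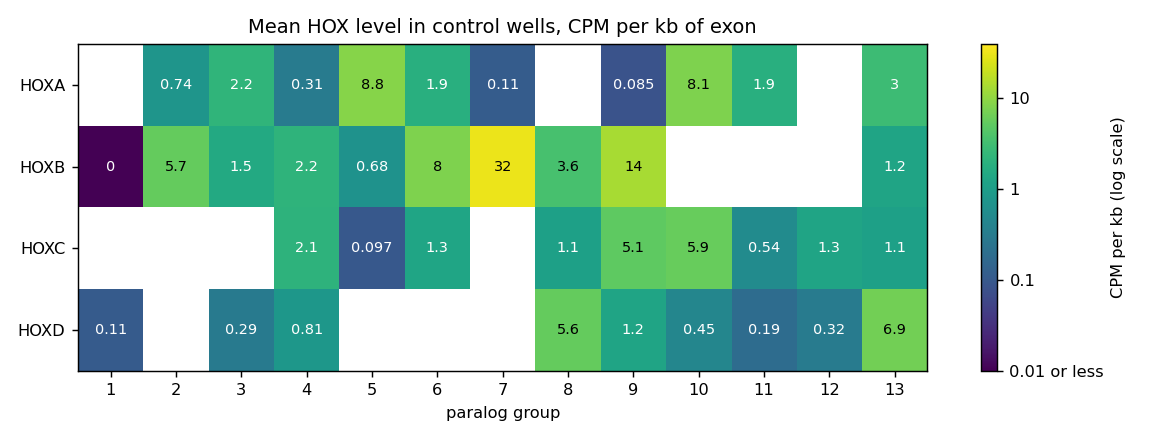
Mean level of each HOX gene in the 3 control wells, in CPM per kb of exon (color, log scale, with the value in each cell), by cluster (rows) and paralog group (columns). White cells hold no gene of the list. HOXB7 is the highest at 31.7, and HOXA9 (0.0847), HOXC5 (0.0973) and HOXD1 (0.109) are among the lowest. Other genes overlap 27.0% of the exon bases of HOXA9, 59.9% of those of HOXC5 and 58.1% of those of HOXD1, so these levels are uncertain.

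By position along the clusters, 5 of 7 genes of paralog groups 1 to 3, 12 of 15 of groups 4 to 8 and 13 of 16 of groups 9 to 13 reached a mean of 1 CPM in either group. The summed level per kb was 10.6, 68.3 and 50.9 in control wells and 10.7, 64.9 and 51.1 in vitamin C wells for these classes. Over all members, the sum was 129.8 ± 3.64 CPM per kb in control and 127 ± 8.08 CPM per kb in vitamin C wells (SD, n = 3 wells each). The summed level of the HOXB cluster was 146, 148 and 158 CPM in control replicates 1, 2 and 3 and 129.8, 128 and 145 CPM in vitamin C replicates 1, 2 and 3. That of the HOXA cluster was 76.7, 82.4 and 79.4 CPM in control wells and 89.4, 88.0 and 83.7 CPM in treated wells. The sums of HOXB were lower and those of HOXA higher in every vitamin C well than in any control well, but the groups nearly touched. The nearest wells were 145 against 146 CPM for HOXB and 83.7 against 82.4 CPM for HOXA. The sums of HOXC (39.9 to 48.1 CPM) and HOXD (35.4 to 40.2 CPM) overlapped between groups. The cluster sums were not tested, and among single genes 30.6% of all those tested did not overlap between groups.

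**Figure D2:**
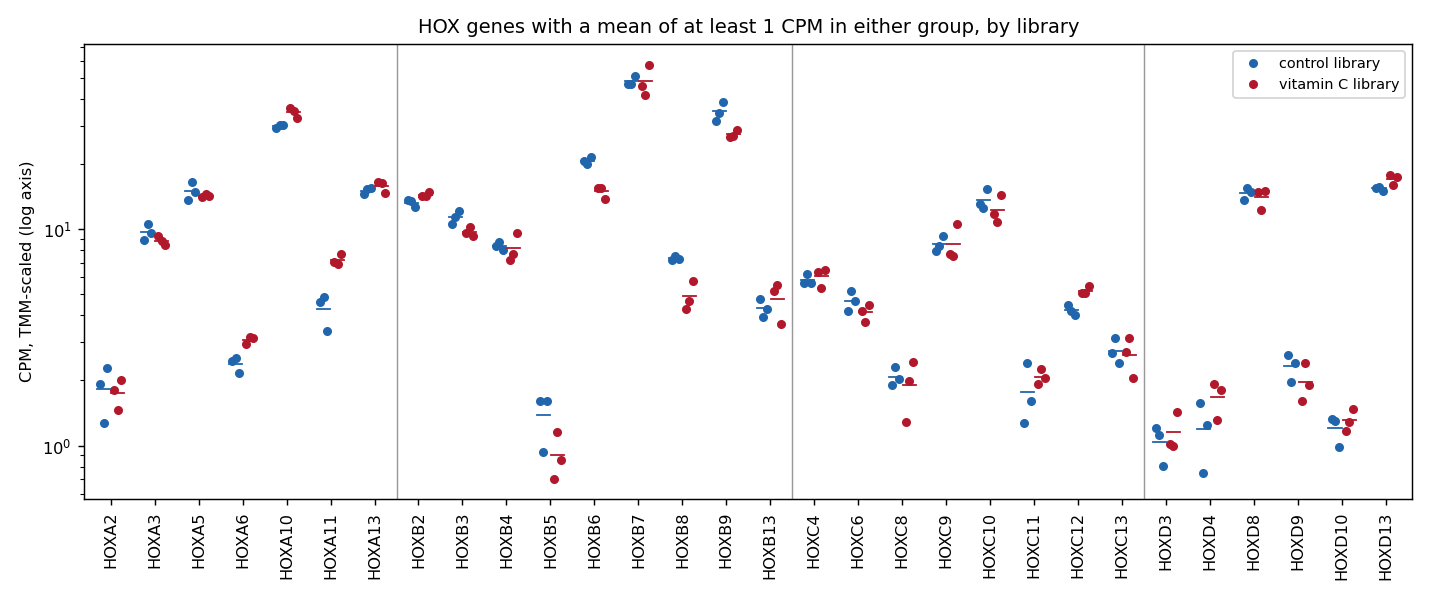
Level of the 30 HOX genes that reached a mean of 1 CPM in either group, in CPM after TMM scaling on a log axis. Each point is 1 library and each short line the mean of 3 libraries, blue for control and red for vitamin C; vertical lines part the clusters. The points of most genes overlap between groups. Of the genes called, HOXA11 is higher and HOXB6, HOXB8 and HOXB9 are lower in every vitamin C library. The groups are also apart for HOXA6, HOXA10, HOXB2, HOXC12 and HOXD13 (higher) and HOXB3 (lower), which were not called. Of all genes tested, 30.6% did not overlap between groups.

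With vitamin C, 3 genes of the HOXB cluster were lower and 1 gene of the HOXA cluster was higher. HOXB6, HOXB8 and HOXB9, which specify trunk and more posterior levels in the embryo, fell, and HOXA11, a gene of limb and urogenital development, rose. Of the 38 genes, 33 passed the filter on low counts, and 4 of these were called (12.1%), against 11.2% of all genes tested. By direction, 1 member was higher, against 6.09% of all genes and 7.46% of protein coding genes, and 3 were lower, against 5.09% and 5.99%. The share of members called was therefore close to that of all genes. The median log2 fold change of the members tested was 0.00, the same as over all genes tested.

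HOXB8 (ENSG00000120068, chr17:48611377-48614939 in GRCh38, minus strand) was 7.23, 7.52 and 7.30 CPM in control replicates 1, 2 and 3 and 4.30, 4.65 and 5.78 CPM in treated replicates 1, 2 and 3. The groups did not overlap, and vitamin C replicate 3 was the nearest to the controls. Its log2 fold change was -0.59 (SE 0.127, edgeR adjusted p = 0.0089), a change of -33.7%. These levels rest on 301, 202 and 118 counts in the controls and 110, 153 and 121 in treated wells. No exon base of HOXB8 overlaps another gene in GENCODE 29.

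HOXB6 (ENSG00000108511, chr17:48595751-48604992 in GRCh38, minus strand) was 20.6, 20.1 and 21.6 CPM in control wells and 15.6, 15.6 and 13.8 CPM in treated wells. Every vitamin C well lay below every control well. The log2 fold change was -0.46 (SE 0.0780, edgeR adjusted p = 0.0019), a change of -27.2%. HOXB6 had 857, 539 and 349 counts in the controls and 399, 514 and 289 in treated wells. Of its exon bases, 32.9% overlap another gene, among them HOXB3 on the same strand and HOXB-AS3 on the opposite strand. HOXB3 and HOXB-AS3 themselves did not pass the test, with log2 fold changes of -0.21 and -0.63 (edgeR adjusted p = 0.17 and 0.38).

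HOXB9 (ENSG00000170689, chr17:48621159-48626356 in GRCh38, minus strand) was 31.8, 34.5 and 38.9 CPM in control wells and 26.8, 27.1 and 28.9 CPM in treated wells. The groups did not overlap, and the control wells were spread more widely than the treated ones. The log2 fold change was -0.34 (SE 0.0778, edgeR adjusted p = 0.014), a change of -20.8%. HOXB9 had 1324, 926 and 629 counts in the controls and 684, 891 and 606 in treated wells. The call was lost without control replicate 3 (log2 fold change -0.26, edgeR adjusted p = 0.068) and without vitamin C replicate 2 (-0.32, edgeR adjusted p = 0.061).

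HOXA11 (ENSG00000005073, chr7:27181510-27185223 in GRCh38, minus strand) was 4.59, 4.88 and 3.4 CPM in control wells and 7.04, 6.93 and 7.69 CPM in treated wells. Every vitamin C well lay above every control well. The log2 fold change was 0.72 (SE 0.136, edgeR adjusted p = 0.0040), a rise of 1.64-fold, and it ran from 0.61 to 0.80 over 14 alternative fits. HOXA11 had 191, 131 and 55 counts in the controls and 180, 228 and 161 in treated wells. Of its exon bases, 31.1% overlap the antisense gene HOXA11-AS. The sources used here do not say whether strand was used in counting, and if it was not, reads of both genes cannot be told apart there. HOXA11-AS had 35, 32 and 9 counts in control wells and 11, 44 and 27 counts in treated wells and did not pass the test (log2 fold change 0.20, edgeR adjusted p = 0.80).

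HOXB7 (ENSG00000260027, chr17:48607227-48633572 in GRCh38, minus strand), whose annotated span runs across HOXB8 and HOXB9 without shared exon bases, was not called. It was 47.2, 47.0 and 51.2 CPM in control wells and 46.2, 41.9 and 57.7 CPM in treated wells. This corresponds to 1965, 1263 and 827 counts in the controls and 1181, 1379 and 1208 in treated wells. The groups overlapped, and vitamin C replicate 3 was the highest of all 6 libraries. Its log2 fold change was 0.00, with a 95% confidence interval from -0.20 to 0.20 (edgeR adjusted p = 1.0). Without vitamin C replicate 3 it was -0.13 (edgeR adjusted p = 0.22). Whether the change of HOXB7 differs from that of HOXB6, HOXB8 or HOXB9 was not tested.

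**Figure D3:**
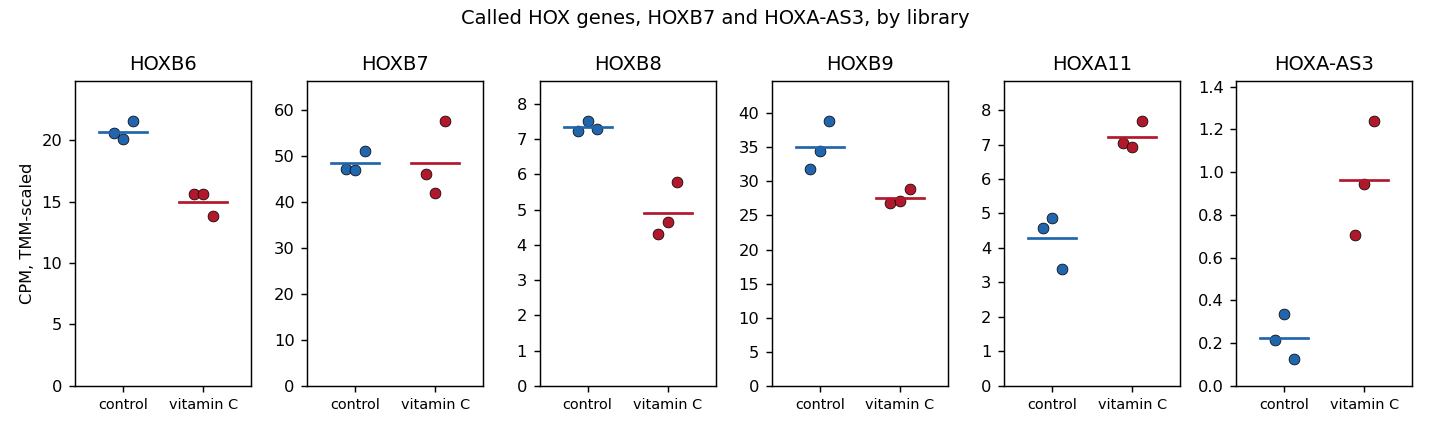
Level by library (points, CPM after TMM scaling, each axis starting at 0) and mean of 3 libraries (lines) for the 4 called HOX genes, HOXB7 and the antisense RNA HOXA-AS3, blue for control and red for vitamin C. The groups are apart for HOXB6, HOXB8, HOXB9, HOXA11 and HOXA-AS3 and overlap for HOXB7, where 1 vitamin C library reaches 57.7 CPM.

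Elsewhere in the HOXB cluster, no other gene passed the test. HOXB5 had few counts, 67, 25 and 26 in control and 18, 38 and 18 in treated wells, with overlapping levels. Its log2 fold change of -0.58 had a 95% confidence interval from -1.23 to 0.06. HOXB2, a gene of hindbrain patterning, had 572, 363 and 205 counts in the controls and 364, 466 and 313 in treated wells, with a log2 fold change of 0.11 and levels that did not overlap. HOXB3, of the same region, had 442, 306 and 196 counts in the controls and 245, 338 and 196 in treated wells, and its levels did not overlap between groups. HOXB4, known for its use in expanding blood stem cells, had 348, 235 and 129 counts in the controls and 184, 254 and 202 in treated wells (log2 fold change -0.04), with overlapping levels. HOXB13, the gene at the far 5′ end, is separated from the rest of the cluster, and its levels of 4.75, 3.95 and 4.27 CPM in control wells and 5.20, 5.50 and 3.63 CPM in treated wells overlapped (198, 106 and 69 counts in the controls and 133, 181 and 76 in treated wells, log2 fold change 0.15).

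In the HOXA cluster, HOXA10 was just above the threshold. This gene, known for its part in uterine development and in blood cell precursors, was 29.5, 30.4 and 30.5 CPM in control wells and 36.4, 35.3 and 32.7 CPM in treated wells. The groups did not overlap. The log2 fold change was 0.21 (SE 0.0642, edgeR adjusted p = 0.052). HOXA10 passed the test in 4 of 14 alternative fits. These were without vitamin C replicate 3 (0.26, edgeR adjusted p = 0.012), with limma-voom (adjusted p = 0.047), with library size scaling (edgeR adjusted p = 0.041) and when at least 10 counts were required in every library (edgeR adjusted p = 0.048). It did not pass with DESeq2 (adjusted p = 0.068) or without any other single library (edgeR adjusted p = 0.12 to 0.17). HOXA10 had 1229, 817 and 493 counts in the controls and 929, 1162 and 684 in treated wells. HOXA6 was 2.45, 2.53 and 2.17 CPM in control wells and 2.94, 3.19 and 3.15 CPM in treated wells, again without overlap, with a log2 fold change of 0.36 (edgeR adjusted p = 0.17) and 102, 68 and 35 counts in the controls and 75, 105 and 66 in treated wells. HOXA5, a regulator of lung and skeletal patterning, had 566, 444 and 239 counts in the controls and 361, 478 and 297 in treated wells, with a log2 fold change of -0.06. HOXA13, a gene of the digits and the urogenital tract, had 603, 412 and 251 counts in the controls and 422, 536 and 307 in treated wells (0.07). For both, the 95% confidence interval lay within 0.5 of 0. HOXA2, which patterns the hyoid arch, had 80, 34 and 37 counts in the controls and 46, 48 and 42 in treated wells (-0.05). HOXA3, needed for thymus and parathyroid, had 371, 284 and 155 counts in the controls and 237, 290 and 178 in treated wells (-0.12). The levels of HOXA2, HOXA3, HOXA5 and HOXA13 overlapped between groups, and none passed the test.

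None of the 8 HOXC and 8 HOXD genes tested was called by edgeR, with 1 and 0 at an unadjusted p under 0.05, against 25.7% of all genes. DESeq2 called none either, but gave no adjusted p for HOXD11 and HOXD12. The 1 was HOXC12, at 4.49, 4.17 and 4.02 CPM in control wells and 5.09, 5.05 and 5.49 CPM in treated wells, with a log2 fold change of 0.29 (edgeR adjusted p = 0.17), from 187, 112 and 65 counts in the controls and 130, 166 and 115 in treated wells. HOXC10, a marker of hindlimb and lumbar levels, was the HOXC gene with the most counts and had 547, 337 and 248 counts in the controls and 302, 355 and 302 in treated wells, a log2 fold change of -0.15 (edgeR adjusted p = 0.46). HOXD13, which patterns the digits, was 15.6, 15.7 and 15 CPM in control wells and 17.8, 16 and 17.4 CPM in treated wells, with a log2 fold change of 0.14 (edgeR adjusted p = 0.28), without overlap. This gene had 650, 422 and 243 counts in the controls and 454, 528 and 365 in treated wells.

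The other HOXC and HOXD genes that reached 1 CPM had overlapping levels. HOXC4 and HOXC6, at the 3′ part of the cluster, had 236, 167 and 91 counts in the controls and 163, 177 and 136 in treated wells, and 174, 139 and 75 counts in the controls and 107, 122 and 94 in treated wells, with log2 fold changes of 0.05 and -0.18. HOXC8, a gene of thoracic levels, had 79, 62 and 33 counts in the controls and 33, 65 and 51 in treated wells (-0.14), and HOXC9 had 329, 224 and 150 counts in the controls and 196, 247 and 222 in treated wells (0.01). These 4 genes did not pass the test. HOXC11 had 53, 65 and 26 counts in the controls and 49, 74 and 43 in treated wells (0.25), and HOXC13, which acts in hair and nails, had 111, 85 and 39 counts in the controls and 69, 103 and 43 in treated wells (-0.05). HOXD8 had 572, 415 and 240 counts in the controls and 378, 405 and 317 in treated wells (-0.06), and HOXD9 had 109, 53 and 39 counts in the controls and 41, 79 and 40 in treated wells (-0.24). None of these passed the test. HOXD10, a gene of lumbar motor neurons, had 55, 35 and 16 counts in the controls and 30, 42 and 31 in treated wells (0.08). HOXD3 had 50, 30 and 13 counts in the controls and 26, 33 and 30 in treated wells (0.08), and HOXD4 had 66, 20 and 20 counts in the controls and 49, 43 and 38 in treated wells (0.45).

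Of the 29 members that were tested and not called, 15 had a 95% confidence interval that lay within 0.5 of 0 on the log2 scale, so that a change of that size lay outside the interval. For the other 14 the interval reached further, up to HOXD12, with 3 to 19 counts per library and a log2 fold change of -0.70. HOXA4 had 25, 13 and 9 counts in the controls and 20, 31 and 10 in treated wells (0.45), and HOXD11 had 11, 13 and 7 counts in the controls and 10, 15 and 15 in treated wells (0.44). HOXD3 and HOXD4 share 74.1% and 80.5% of their exon bases with other genes, so that their counts are uncertain. The groups did not overlap for 10 of the 33 members tested, 6 higher and 4 lower with vitamin C, against 30.6% of all genes tested. The 5 members that did not pass the filter, HOXA7, HOXA9, HOXB1, HOXC5 and HOXD1, had 1 to 44 counts in total over the 6 libraries, and no difference was detectable at this depth.

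**Figure D4:**
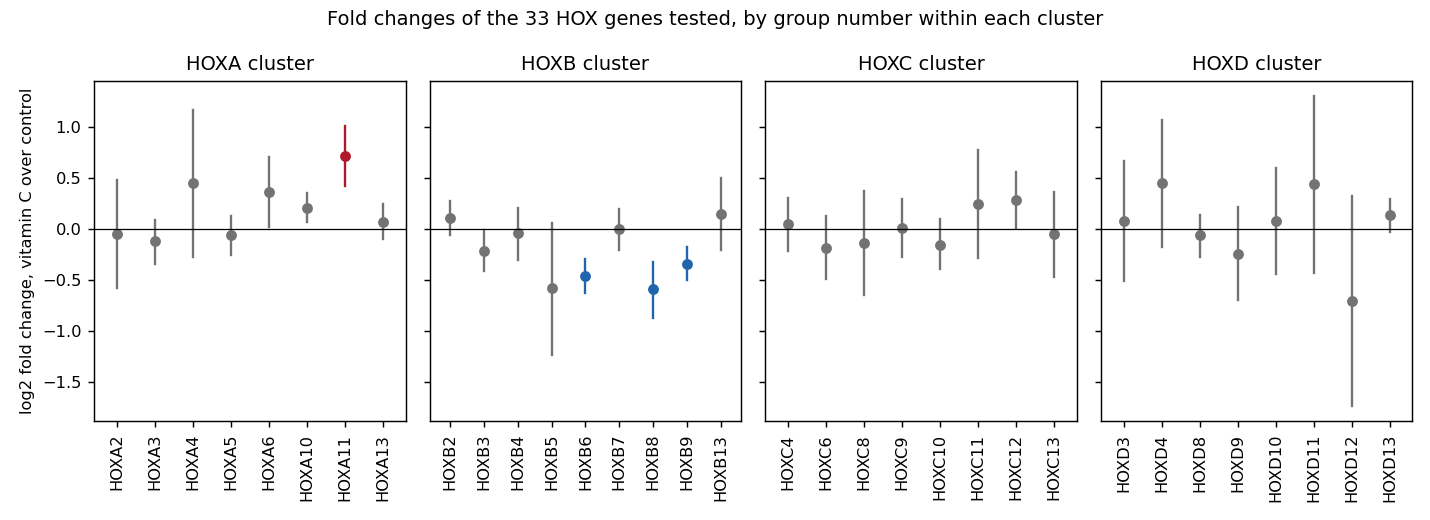
Change with vitamin C relative to control on the log2 scale (points) with the 95% confidence interval of edgeR's quasi-likelihood test (bars) for the 33 HOX genes tested, ordered by number within each cluster. Red is higher and blue lower at an adjusted p under 0.05, and gray is not called. The HOXB genes that fell lie at -0.46, -0.59 and -0.34, and HOXA11 lies at 0.72.

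The clusters also hold non-coding RNAs, many of them antisense to HOX genes. Of 25 such genes listed, 23 have a row in the count table and 12 passed the filter. HOXA-AS3, whose exons overlap those of HOXA3, HOXA4, HOXA6 and HOXA7 on the opposite strand, was the 1 gene called (8.33%), and it was higher, against 11.2% of all genes called and 6.09% called higher. Of the 16353 genes tested, 12662 were protein coding, as were 1703 of the 1829 called and 944 of the 996 called higher. The shares among the remaining genes were thus lower than those of all genes. HOXA-AS3 had 9, 9 and 2 counts in the controls and 18, 31 and 26 in treated wells, which gives 0.225 ± 0.106 CPM in control and 0.963 ± 0.269 CPM with vitamin C (SD, n = 3 wells each). Every vitamin C well lay above every control well. The log2 fold change was 2.00 (SE 0.397, edgeR adjusted p = 0.0055), a size that depends on only 20 control counts. Of its exon bases, 39.3% overlap genes on the opposite strand, and 39.3% of the exon bases of HOXA6 do so too, so that part of these counts cannot be told apart without strand. HOTAIR, an RNA of the HOXC cluster known for its link to Polycomb, had a log2 fold change of 0.20, and HOTAIRM1, beside the HOXA cluster's 3′ end, had -0.19 (edgeR adjusted p = 0.64 and 0.57). HAGLR, the antisense RNA beside HOXD1, had a log2 fold change of -0.34 (edgeR adjusted p = 0.14).

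HOX proteins bind DNA together with the TALE homeodomain proteins of the PBX, MEIS and PKNOX families. Of the 9 genes listed, 7 passed the filter, and 1 fell (14.3%), against 11.2% of all genes called and 5.09% called lower. PKNOX2 was 9.46, 9.46 and 9.84 CPM in control wells and 6.89, 6.66 and 7.40 CPM in treated wells, without overlap. Its log2 fold change was -0.46 (SE 0.0978, edgeR adjusted p = 0.0086). The partners with more counts did not pass the test, with log2 fold changes of 0.01 for PBX3, -0.10 for MEIS2 and -0.19 for MEIS1 (edgeR adjusted p = 0.97, 0.36 and 0.095).

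Of 29 Polycomb genes tested, 1 was called by edgeR and by DESeq2 (3.45%), and it was higher. In edgeR, 11.2% of all genes were called and 6.09% were called higher. At an unadjusted p under 0.05 in edgeR there were 11 of the 29, against 25.7% of all genes. RNF2, the catalytic subunit that ubiquitinates histone H2A, was 74.1, 76.0 and 79.6 CPM in control wells and 93.6, 89.2 and 90.7 CPM in treated wells, a log2 fold change of 0.25 (SE 0.0509, edgeR adjusted p = 0.0058). Of 17 trithorax and related genes, 4 were called by edgeR and by DESeq2 (23.5%), against 11.2% of all genes in edgeR. All 4 were lower, against 5.09% of all genes called lower. At an unadjusted p under 0.05 in edgeR there were 7 of the 17, against 25.7% of all genes. The 4 were the histone H3 lysine methyltransferases KMT2A, KMT2C and KMT2D, with log2 fold changes of -0.27, -0.23 and -0.27, and the elongation factor MLLT1, with -0.25 (edgeR adjusted p = 0.018, 0.034, 0.029 and 0.032). The KMT2A gene, which maintains HOX transcription, was 162, 175 and 161 CPM in control wells and 149, 141 and 121 CPM in treated wells, and vitamin C replicate 3 was the lowest library for KMT2A, KMT2C and KMT2D. The number called in both lists together, 5, was 1 without control replicate 3 (RNF2 alone), and it was 2 when control replicate 1, control replicate 2 or vitamin C replicate 2 was left out.

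Of the 14 genes listed beside the clusters, 11 were tested and 2 called (18.2%), against 11.2% of all genes. HIBADH, a mitochondrial enzyme of valine breakdown near the HOXA cluster, rose with a log2 fold change of 0.23 (edgeR adjusted p = 0.0063). HNRNPA1, an RNA-binding protein near the HOXC cluster, fell with -0.24 (edgeR adjusted p = 0.031), and its reads can be shared with pseudogene copies. It was not called without control replicate 1 or 3 or without vitamin C replicate 2. SKAP2 and SKAP1, near the HOXA and HOXB clusters, had log2 fold changes of 0.01 and -0.34, and neither passed the test (edgeR adjusted p = 0.92 and 0.59).

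**Figure D5:**
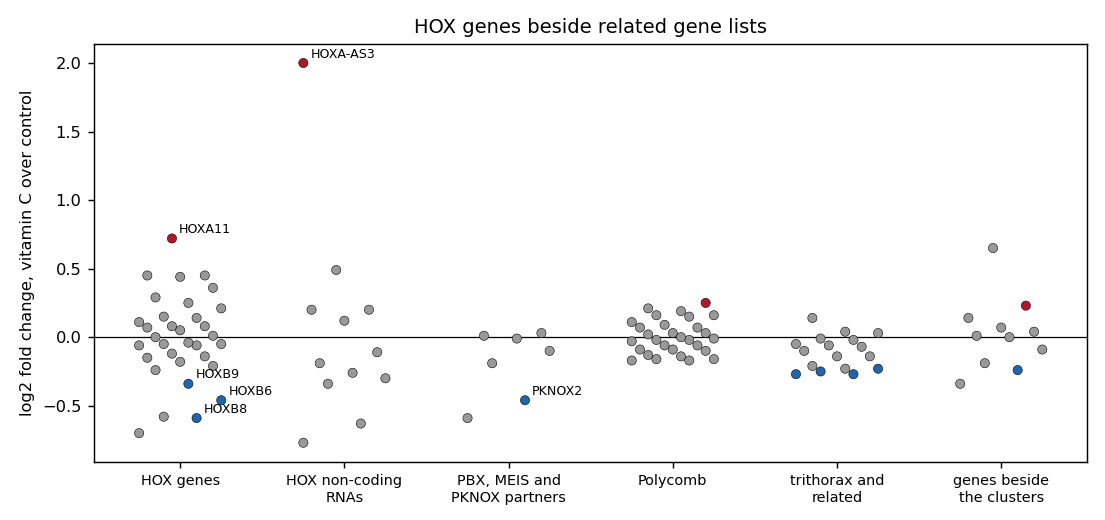
Change with vitamin C relative to control, on the log2 scale, of each gene tested (points) in the HOX list and 5 related lists. Red is higher and blue lower at an adjusted p under 0.05 in edgeR, gray is not called, and the sideways position within a list has no meaning. HOXA-AS3 lies at 2.00, and the called HOX genes lie between -0.59 and 0.72.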

How the data were processed

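Raw read counts per gene of 6 libraries were deposited by the authors, who used STAR for alignment of paired-end reads and HTSeq for counting. The methods name GENCODE v19, and the submitters' processing notes name hg38, CASAVA 1.4 and Trim Galore. The counting mode and use of strand are not given in the sources used here. The series table and the 6 single tables hold the same values.

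Symbols, coordinates and exon lengths were taken from GENCODE 29 (GRCh38), which holds 57055 of the 60675 identifiers. Counts were tested in edgeR 4.0.16 (R 4.3.3) using filterByExpr, TMM scaling and the quasi-likelihood test of vitamin C against control, with no other term in the model. Standard errors were derived from the quasi-likelihood F. The procedure was tested on simulated data with the same spread set for all genes. These data held no changes in genes with few counts and none as small as those of HOXB6 and HOXB9, so such cases were not covered. Alternatives were other scalings, filters and thresholds, DESeq2 1.42.0, limma-voom (limma 3.58.1), the replicate number as a block and each library left out in turn. The lane of each library was not used here, and a further homeobox sequence is not reported here.

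The members and all lists were chosen with earlier results of these data known. All members were accounted for. Counts in every library are given for members with a mean of at least 1 CPM in either group or an adjusted p under 0.05, the rest by range. Of each related list the called genes are named, up to the 4 with the smallest p in each direction, and the other genes named from these lists were chosen after their values were seen. The study's text gives n = 3 wells per group. No pair of wells of a group agreed within sampling noise (the smallest chi-square per degree of freedom was 2.59). That spread alone does not show that the wells were independent.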

Additional observations from a re-analysis of the deposited data

How the results depend on the processing

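HOXA11, HOXB6, HOXB8 and HOXA-AS3 were called under each of the alternative fits in which they could be tested, while HOXB9 was lost without control replicate 3 or vitamin C replicate 2. The number of HOX genes lower with vitamin C was 2 to 3 over the fits without single libraries, and it was 2 at an adjusted p under 0.01. The number higher was 2 with library size scaling, with at least 10 counts in every library, with limma-voom and at an adjusted p under 0.1, and 1 to 2 over the fits without single libraries. The added gene was HOXA10. With at least 10 counts in every library, 0 HOX non-coding RNAs were called, since that filter leaves out HOXA-AS3. The median log2 fold change of the HOX genes tested ran from -0.09 to 0.05 without single libraries, the lowest without vitamin C replicate 3.

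At an adjusted p under 0.1, 2 partner genes, 8 Polycomb and trithorax genes and 2763 genes in all were called. At an adjusted p under 0.01, 1 Polycomb or trithorax gene, 1 gene beside the clusters and 795 genes in all were called. Over the fits without single libraries, 1 to 6 Polycomb and trithorax genes were called, 1 to 3 genes beside the clusters and 964 to 2095 of all genes.

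The labels give both groups the same replicate numbers. The correlation of the deviations of same-numbered wells was 0.123, -0.024 and 0.091, and that of differently numbered wells ran from -0.179 to 0.108. These values do not settle whether the wells were paired. With the replicate block, 1 HOX gene was higher and 3 were lower, as without it. Of all genes, 1913 were called with the block and 1829 without it. Genes with few counts, such as HOXD12 and HOXB5, allow only wide intervals.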
